A study of Mus musculus with 4 samples.

Results

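The genes described here are 8 mouse ATP-binding cassette (ABC) transporters that pump drugs out of cells, namely Abcb1a, Abcb1b, Abcc1, Abcc2, Abcc3, Abcc4, Abcc5 and Abcg2. They were chosen by name, and their probes were all spots that are not controls and whose gene name equals a member. This gave 11 probes on 20 spots, out of 39429 probes on 43020 spots for 31704 genes. Abcc5 had 4 probes, 1 of them spotted 10 times, and each of the other members had 1 probe with 1 spot.

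ABC transporters use the energy of ATP to move molecules across membranes. Abcb1a and Abcb1b encode the mouse forms of P-glycoprotein, the multidrug pump that humans make from ABCB1. The Abcc members encode multidrug resistance-associated proteins, which export organic anions such as conjugates of glutathione and glucuronic acid, and Abcg2 encodes the breast cancer resistance protein. Doxorubicin, an anthracycline that poisons topoisomerase II and breaks DNA, is itself a known cargo of P-glycoprotein and of some of the other pumps.

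RNA came from mouse embryonic fibroblasts (MEFs), which are primary cells grown from embryos. The groups were p53+/+ (wild-type, WT) MEFs without doxorubicin, WT MEFs with doxorubicin, p53-/- MEFs without doxorubicin and p53-/- MEFs with doxorubicin, where p53-/- cells lack the tumor suppressor that Trp53 encodes. Each group was 1 sample on 1 array, 200 ng of RNA was labeled with Cy3 for each, and all 4 arrays were on 1 slide. Dose, duration, vehicle, passage and number of embryos behind each sample are not given for the arrays in the sources used here. No difference between groups can therefore be tested, and slide position and condition cannot be told apart.

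A signal below is the intensity of a probe as read by the scanner software, and signals are listed for WT MEFs without and with the drug, then for p53-/- MEFs without and with it. A log2 ratio compares arrays after each was scaled to its own 75th percentile, so it is relative to the brighter probes of the array. A gene was counted as higher or lower where its ratio was at least 2-fold and both arrays of the ratio read its probe well above background. The only error that could be measured was that of repeat spots on 1 array. Over 253 probes with 10 spots it gave an SD of 0.115 for a log2 ratio, which leaves out the spread between cultures. In these bulk samples, fewer cells that make a transcript and less transcript per cell cannot be told apart.

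Probes well above background made up 56.9% to 62.9% of the probes of an array, and 0 spots were saturated. The signal of Trp53 was 1228, 3442, 442 and 543, so it was lower in p53-/- MEFs by a log2 ratio of -1.33 without and -3.08 with doxorubicin, and whether its probe lies in the deleted part is not given in the sources used here. Cdkn1a and Mdm2, known p53 targets, were also lower in untreated p53-/- than in untreated WT MEFs, with log2 ratios of -4.73 and -1.80. All 15 fibroblast markers were well above background on all 4 arrays, with a summed scaled signal of 629 to 1027 (in units of the 75th percentile signal), and with doxorubicin 7 of them were lower in WT MEFs, where 10.4% of all genes were, and 2 in p53-/- MEFs, where 6.89% were. The summed scaled signal of 12 epithelial markers was 7.81 and 7.99 without doxorubicin and 31.1 and 36.2 with it, mostly from the keratin genes Krt18 and Krt19. Of 7 epithelial markers measured, 4 were higher in WT and 5 in p53-/- MEFs, with 0 lower, among them Krt14, Cldn3 and Cldn7 in both genotypes, and Epcam was not well above background on any array. Of all measured genes, 11.0% and 9.24% were higher. Ocln is outside these counts, because its probe was well above background in untreated WT MEFs alone (signals of 217 without and 9.89 with doxorubicin). Cdh1 and Krt5 are outside them too, since in WT MEFs they were well above background with doxorubicin alone. Krt8 had doxorubicin log2 ratios of -0.46 (WT) and 0.32 (p53-/-). In untreated p53-/- MEFs Krt14, Cldn3 and Cldn7 had signals of 179, 156 and 219, below the brightest negative control of that array (250.1). In untreated WT MEFs Cldn3 had 66.7, below the brightest negative control there (108.3). Endothelial markers summed to 4.60 to 6.16, mostly from Kdr and Egfl7. The Kdr probe used had doxorubicin log2 ratios of 0.20 (WT) and -0.35 (p53-/-), but a second, dimmer Kdr probe had 2.68 and 1.70. Cdh5 and Tie1 were not well above background. Vwf had a log2 ratio of 3.08 with doxorubicin in WT MEFs, and Robo4 was well above background in treated cells alone. The list went both ways. In WT MEFs 4 endothelial markers were well above background with doxorubicin alone, and 2, Emcn and Erg, without it alone. In p53-/- MEFs these numbers were 2 and 1 (Emcn). Emcn had signals of 177, 22.5, 343 and 127, and Pecam1 had doxorubicin log2 ratios of -0.62 (WT) and -0.13 (p53-/-). Leukocyte markers summed to 16.9 to 25.3, mostly from Itgam. The Itgam probe used had a signal of 26264 in untreated WT MEFs, where its other probes had 205 and 77.2. Cd14 had log2 ratios of 3.74 (WT) and 0.62 (p53-/-). The part of these shifts in the results for the exporters was not tested.

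The probes of the Abcb1 pair are shown first, because Abcb1a and Abcb1b are closely related genes whose signals could be mixed if their probes were alike. The first 30 of the 60 bases of each probe are printed 5′ to 3′.
Abcb1a probe: actcagacatgggcacctgagttcagatcc
Abcb1b probe: tccaggctggagcaaagcgctcatgagctg
The full probes of the pair shared no run longer than 7 bases. None of the 11 member probes shared a run of 16 bases with another probe on the array (0 matches on the same strand). Probes were compared with probes alone, and no transcript sequence was searched. Whether a probe of the pair also reads the transcript of a related gene was therefore not tested. By the positions in the files (mm9), the Abcb1a probe lies at chr5:8748075-8748134 and the Abcb1b probe at chr5:8865925-8865984, both on the plus strand. Exon and UTR limits of the mm9 build were not used here.

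With doxorubicin, both P-glycoprotein genes were more than 2-fold higher in WT and in p53-/- MEFs. The signal of Abcb1b was 1284, 6376, 1119 and 7329. The untreated cultures of both genotypes were low and the treated cultures of both genotypes were high. The log2 ratio of doxorubicin-treated over untreated cells was 2.50 in WT MEFs (5.66-fold) and 2.35 in p53-/- MEFs (5.09-fold). The difference of 0.15 between these log2 ratios was below the repeat-spot SD of 0.163 for such a difference. Only 319 of 17513 measured genes had a higher ratio in WT MEFs, and 225 of 16950 had one in p53-/- MEFs. Between genotypes, Abcb1b had a log2 ratio of p53-/- over WT of -0.06 without doxorubicin, within the repeat-spot SD, and of -0.21 with it.

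Abcb1a was near background until doxorubicin was added. Its signal was 59.4, 961, 36.7 and 298, and only the treated cultures were well above background. The gene was therefore at least 18.4-fold higher with doxorubicin in WT MEFs, and at least 4.00-fold higher in p53-/- MEFs. Each bound sets the treated array against the dim probe's own signal or the lowest signal called well above background on the untreated array, whichever was higher. Against the brightest negative control spot the bound fell to 10.1-fold in WT MEFs, and none could be given in p53-/- MEFs, where that spot of the untreated array had a signal of 250.1. Among treated cells the p53-/- culture had less Abcb1a than the WT culture, at a log2 ratio of -2.10 (0.233-fold). Only 443 of the 17888 genes measured on both treated arrays had a lower ratio. The treated cultures thus differed far more in Abcb1a than in Abcb1b (-2.10 against -0.21), a contrast between single arrays that was not tested.

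The promoters of the pair are printed next, since both genes were higher in treated cells. Each sequence holds the 250 bases before the transcript start from RefSeq (GRCm38.p6), plus strand, with CCAAT boxes and GC boxes in capitals. The windows are chr5:8566841-8567090 for Abcb1a and chr5:8797897-8798146 for Abcb1b.
Abcb1a promoter: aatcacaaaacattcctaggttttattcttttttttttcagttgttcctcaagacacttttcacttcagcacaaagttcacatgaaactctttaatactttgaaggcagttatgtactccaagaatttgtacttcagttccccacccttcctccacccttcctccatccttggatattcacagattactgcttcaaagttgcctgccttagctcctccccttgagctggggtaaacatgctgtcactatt
Abcb1b promoter: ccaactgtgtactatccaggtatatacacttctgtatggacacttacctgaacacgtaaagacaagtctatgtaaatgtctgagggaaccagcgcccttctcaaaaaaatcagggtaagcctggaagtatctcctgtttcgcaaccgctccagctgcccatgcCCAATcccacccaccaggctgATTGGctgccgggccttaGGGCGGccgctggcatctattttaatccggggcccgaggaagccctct
Both strands were searched for CCAAT (its reverse reads ATTGG) and for GGGCGG, a core of the sites bound by Sp1. The Abcb1b window held 2 CCAAT boxes, beginning at -87 and -66 from the start, and 1 GC box at -48, with no overlap between them. Such letters are common, with CCAAT in 33.8% and GGGCGG in 32.7% of 32851 promoter windows of this length. Neither was present in the Abcb1a window, which was also poorer in G and C (40.4% against 52.8%). Only 1 start of each gene was searched, and whether these cells use it was not tested. The Abcb1a window ends farther before its probe (8567090 and 8748075) than the Abcb1b window does (8798146 and 8865925), by positions of different builds. Other starts of either gene could have other letters before them. A half-site of p53, searched by its consensus on both strands, was found once in the Abcb1b window, not in the Abcb1a window, and in 7.13% of all windows. TATAAA, present in 12.4% of windows, was in neither. These are matches of letters and not measured binding.

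**Figure D1:**
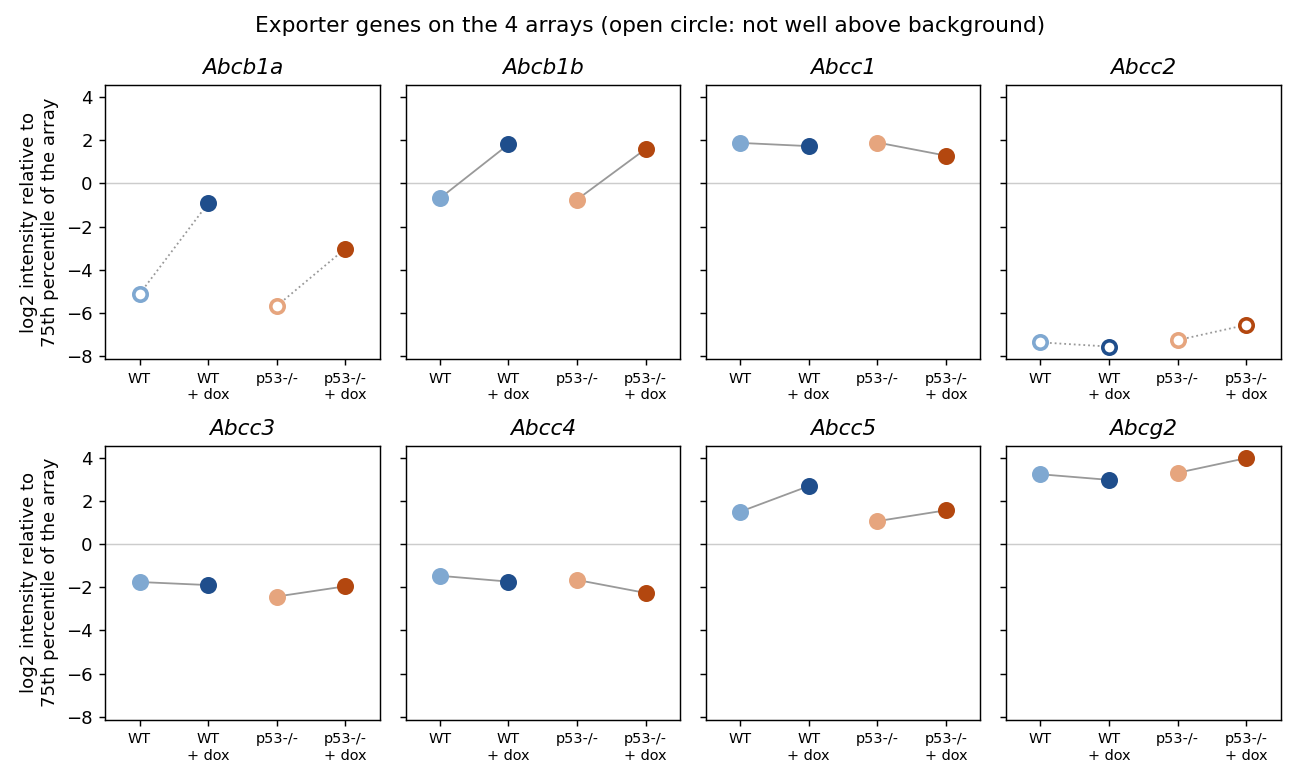
Log2 intensity of each exporter gene, scaled to the 75th percentile signal of that array (vertical axis), in the 4 groups (horizontal axis), with 1 array per group. Filled circles were well above background and open circles were not, dotted lines join to an open circle, and levels are to be compared within a panel only. Abcb1a and Abcb1b climb in both genotypes, Abcc5 climbs most in WT MEFs, and Abcc2 has open circles alone.

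Abcc5 was the other exporter that passed 2-fold with doxorubicin, and it did so in WT MEFs. Its product, also called MRP5, carries cyclic nucleotides and nucleoside analogs. The probe with 10 spots had a signal of 5881, 11769.7, 3943 and 7191. The treated WT culture was highest, the untreated p53-/- culture was lowest, and the remaining cultures lay between them. The log2 ratio with doxorubicin was 1.19 in WT MEFs (2.28-fold) and 0.50 in p53-/- MEFs (1.42-fold), though with median scaling the WT value was 0.91, short of 2-fold. The repeat spots ran from 1.44 to 1.59 in untreated WT, 2.61 to 2.80 in treated WT, 0.98 to 1.17 in untreated p53-/- and 1.48 to 1.67 in treated p53-/- MEFs, as log2 intensity relative to the 75th percentile. They did not overlap between treated and untreated cells of either genotype, but the ranges of untreated WT and treated p53-/- MEFs did. These ranges hold the error of repeat spots on 1 array per group and leave out the spread between cultures. How many of the other probes with 10 spots separate in the same way was not counted. In treated cells Abcc5 was lower in p53-/- than in WT MEFs (log2 ratio -1.12), and without doxorubicin the log2 ratio was -0.44.

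The 4 probes of Abcc5 are shown because they read different stretches of its transcripts, and the capitals mark the polyadenylation signal AATAAA. The first is the probe with 10 spots, at chr16:20331568-20331627 (mm9, minus strand). The others lie at chr16:20400837-20400896, chr16:20392789-20392848 and chr16:20404654-20404713, and 30 bases of each are printed.
Abcc5 probe with 10 spots: gtagaagttttttgtactgtaaagagacct
Abcc5 single-spot probe 1: tatttcattttcAATAAAagtacactgctt
Abcc5 single-spot probe 2: aaagaacaaaccggccagtcctcacatcaa
Abcc5 single-spot probe 3: atcttttgccgcaccaggctcatcctgtcc
The files list single-spot probes 1 and 3 under another transcript of the gene than the remaining pair. In WT MEFs all 4 probes were at least 2-fold higher with doxorubicin, with log2 ratios of 1.19, 1.05, 1.61 and 1.44 in the order printed. In p53-/- MEFs none reached 2-fold, with log2 ratios of 0.50, 0.53, 0.24 and 0.90. The probes disagreed on the size of the genotype difference. Among treated cells 2 of them were at least 2-fold lower in p53-/- MEFs (log2 ratios -1.12 and -1.55) and the others were just short of it (-0.93 and -0.97).

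**Figure D2:**
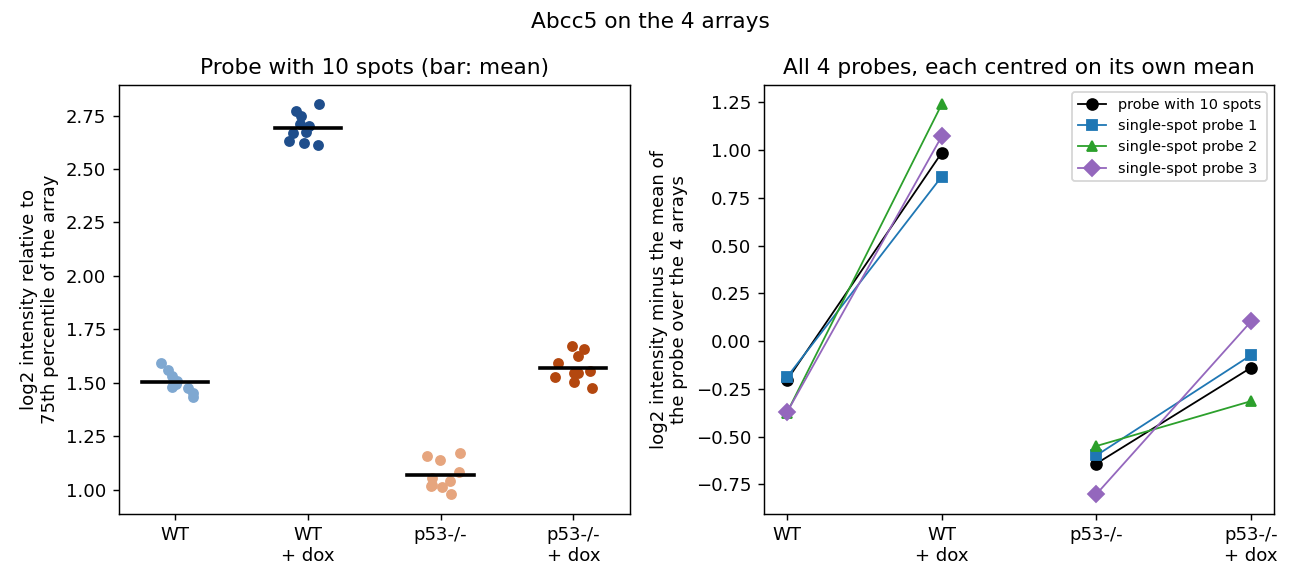
Abcc5 on the 4 arrays, with log2 intensity relative to the 75th percentile for the repeat spots of 1 probe on the left (black bars are means) and, on the right, all 4 probes as log2 intensity minus the probe's own mean over the arrays. The spots of treated WT MEFs sit between 2.61 and 2.80, above all spots of the other arrays, and every probe climbs more steeply in WT than in p53-/- MEFs.

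The remaining Abcc genes did not reach 2-fold with doxorubicin. Abcc1 encodes MRP1, the classic exporter of glutathione conjugates and leukotriene C4, and its signal was 7636, 6033, 7009 and 5918. The untreated cultures were alike (log2 ratio of p53-/- over WT of 0.02, within the repeat-spot SD), and the log2 ratio with doxorubicin was -0.15 in WT and -0.61 in p53-/- MEFs. Abcc4 encodes MRP4, which carries cyclic nucleotides and prostaglandins, and it had a signal of 751, 546, 596 and 505. Its log2 ratio with doxorubicin was -0.27 in WT and -0.60 in p53-/- MEFs, the same direction as Abcc1. The signal of Abcc3, whose product MRP3 exports glucuronides and bile salts, was 615, 489, 349.6 and 625. The untreated p53-/- culture was the low one, with a log2 ratio of -0.67 to untreated WT MEFs, and the log2 ratio with doxorubicin was -0.14 in WT and 0.47 in p53-/- MEFs. Abcc2, a pump of the bile canaliculus that exports conjugated bilirubin, was not well above background on any array (signals of 12.5, 9.6, 12.2 and 25.6), so it has no ratio.

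Abcg2 was bright in every culture and highest in treated p53-/- MEFs. It encodes a half-size ABC protein that works as a dimer and marks many stem cells. Its signal was 19634, 14367, 18646 and 38467. The untreated cultures of both genotypes differed by a log2 ratio of 0.07, within the repeat-spot SD. With doxorubicin the log2 ratio was -0.26 in WT and 0.68 in p53-/- MEFs, neither of them past 2-fold. The treated cultures differed by a log2 ratio of p53-/- over WT of 1.01 (2.01-fold), a value at the limit itself, which became 0.94 with arrays scaled to their median.

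Counted over the family, 6 of 8 exporters were measured on all 4 arrays. In WT MEFs with doxorubicin 2 of 6 were higher (Abcb1b and Abcc5) and 0 lower, where 11.0% of all 17513 measured genes were higher and 10.4% lower. In p53-/- MEFs 1 of 6 was higher (Abcb1b) and 0 lower, against 9.24% and 6.89% of 16950 genes. With arrays scaled to their median instead, 1319 genes were higher and 2792 lower in WT MEFs, and 955 higher and 2098 lower in p53-/- MEFs, in place of 1930 and 1828 and of 1567 and 1168. Abcb1a stands outside these counts because it has only bounds. Between untreated genotypes 0 of 6 reached 2-fold in either direction, against 2.15% of genes higher and 2.61% lower in p53-/- MEFs. Between treated genotypes 1 of 7 was higher in p53-/- MEFs (Abcg2) and 2 were lower (Abcb1a and Abcc5), against 11.9% and 10.3% of 17888 genes. For the difference of the doxorubicin log2 ratios, WT minus p53-/-, 0 of 6 were at least 1 apart, where 8.37% of 16513 genes were so in the positive and 9.86% in the negative direction. With so few members these counts describe the genes named and say nothing of the family as a set. The median log2 ratio of the measured members was -0.15 in WT and 0.49 in p53-/- MEFs, while that of all measured genes was 0.01 and 0.00.

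**Figure D3:**
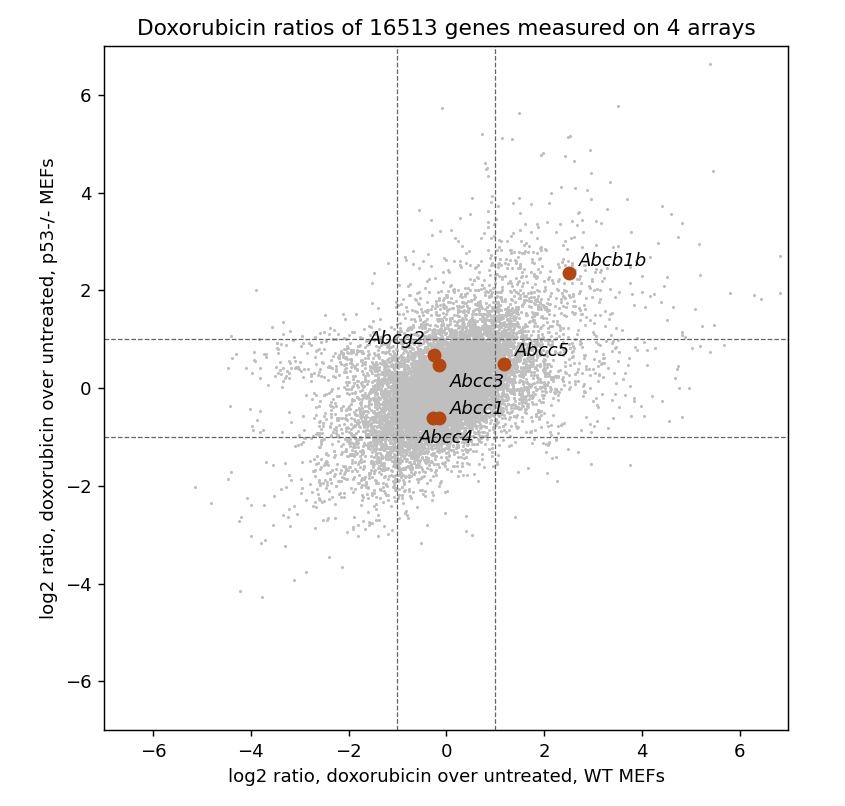
Log2 ratio of doxorubicin-treated over untreated cells in WT MEFs (horizontal axis) and p53-/- MEFs (vertical axis) for the 16513 genes measured on all 4 arrays (gray) and the 6 exporters among them (orange). Dashed lines mark 2-fold. Abcb1b lies far to the upper right at 2.50 and 2.35, Abcc5 lies past the line in WT MEFs alone, and the other exporters lie within the lines.

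Abcb1a and Abcb1b lie side by side on chromosome 5, so the protein-coding genes next to them were read from the RefSeq gene order, a look taken after the values of the pair were seen. Among the 5 genes on each side, 7 of 10 were measured in WT MEFs, where 3 were at least 2-fold higher and 1 lower with doxorubicin. The closest relative, Abcb4, which moves phosphatidylcholine into bile, had a signal of 744, 4681, 733 and 5024. The pattern was like that of Abcb1b, low in both untreated and high in both treated cultures, with log2 ratios of 2.84 (WT) and 2.41 (p53-/-). Crot, a peroxisomal carnitine transferase, had log2 ratios of 1.30 and 0.86, and Slc25a40, a mitochondrial carrier, had 1.16 and 0.96. Rundc3b, whose RefSeq interval overlaps that of Abcb1a, was well above background in treated cells alone, at signals of 204 in WT and 435 in p53-/- MEFs. Farther out, Dbf4, the activating subunit of the Cdc7 replication kinase, had log2 ratios of -1.22 and -0.30, Sri -0.12 and -0.06, and Dmtf1 0.10 and 0.28. In p53-/- MEFs 7 of the 10 were likewise measured, with 1 higher and 0 lower. The median log2 ratio of the measured neighbors was 0.10 (WT) and 0.28 (p53-/-). With 10 genes on each side, 3 of 9 measured in WT MEFs were higher and 1 lower, with a median of 0.10. In p53-/- MEFs 2 of 9 were then higher and 0 lower, with a median of 0.86. Of all measured genes, 11.0% were higher and 10.4% lower in WT MEFs, and 9.24% and 6.89% in p53-/- MEFs.

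**Figure D4:**
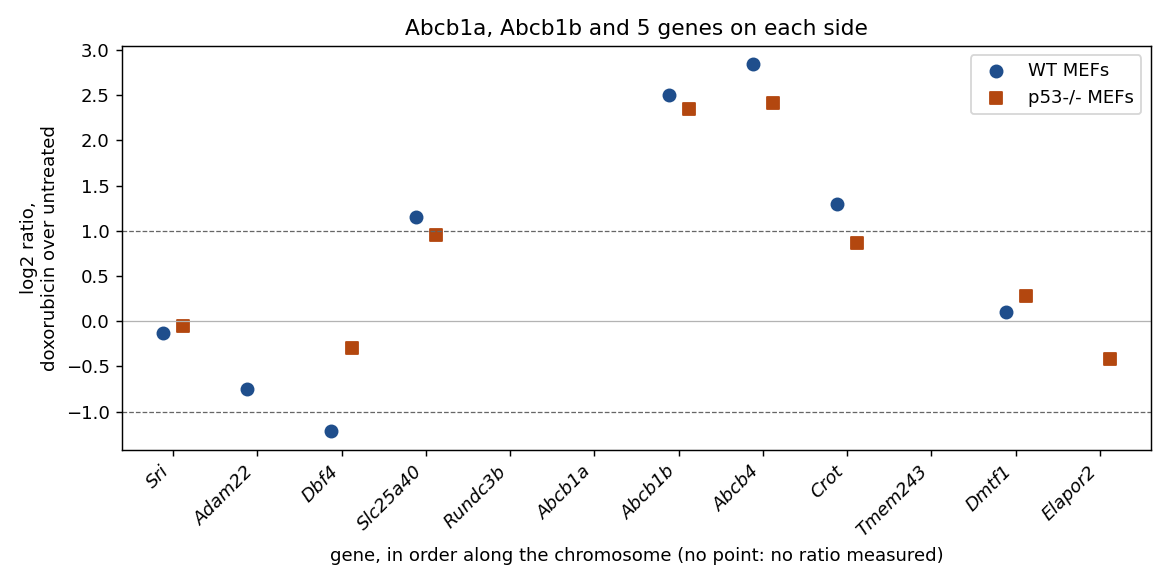
Log2 ratio of doxorubicin-treated over untreated cells (vertical axis) for Abcb1a, Abcb1b and the 5 protein-coding genes on each side, in their order on the chromosome (horizontal axis, not to scale). Blue circles are WT and orange squares p53-/- MEFs, and a missing point means that no ratio was measured. The highest values belong to Abcb1b and its neighbor Abcb4, while Sri and Dmtf1 lie near 0.

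The genes whose pattern over the 4 arrays was nearest to that of a member were sought for Abcb1b and Abcc5, the members with the widest range among those measured on every array. The measure was the Euclidean distance between the 4 log2 values after each gene was centered on its own mean, over 16512 other genes. Nearest to Abcb1b were Cdkl1 (0.08), Slc43a2 (0.17) and Pcdh10 (0.23), the first pair with signals in untreated p53-/- MEFs (130.4 and 192) below the brightest negative control of that array. Cdkl1, a protein kinase gene, had doxorubicin log2 ratios of 2.57 (WT) and 2.39 (p53-/-). Among those nearest to Abcc5 were Rpe (0.04) and LOC100045432 (0.05). Rpe, an enzyme of the pentose phosphate pathway, had log2 ratios of 1.23 and 0.52.

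Among 45 other ABC genes, 9 of the 29 measured in WT MEFs were higher and 2 lower with doxorubicin, with a median log2 ratio of 0.44, and 5 of the 26 measured in p53-/- MEFs were higher and 0 lower, with a median of 0.03. Of all measured genes, 11.0% were higher and 10.4% lower in WT MEFs, and 9.24% and 6.89% in p53-/- MEFs. Abcb9, a lysosomal peptide transporter, had the highest log2 ratio in WT MEFs, with a signal of 961, 9779, 422 and 907 and log2 ratios of 3.54 (WT) and 0.74 (p53-/-). Abcg1, which exports cholesterol to lipoproteins, had log2 ratios of 3.12 and 0.56. Tap1, a subunit of the peptide pump that loads MHC class I, had a log2 ratio of 3.09 in WT MEFs and was at least 4.46-fold higher in p53-/- MEFs, where the untreated array was not well above background. Set against the brightest negative control spot, that bound was only 1.03-fold. These 3 genes had larger ratios in WT MEFs than any exporter measured on all arrays, while Abcb4 was at least 2-fold higher in both genotypes, also with median scaling. Abcg4 and Abcd3 were lower in WT MEFs (log2 ratios -1.25 and -1.12), with -0.30 and -0.37 in p53-/- MEFs, and the second Abcg4 probe fell short of 2-fold in WT MEFs (-0.96). In p53-/- MEFs Abca8b (2.60), Abca7 (1.58) and Abcc8 (1.44) joined Abcb4 among the higher genes, and Abca8b, whose untreated p53-/- signal of 88.1 was below the brightest negative control, had 0.17 in WT MEFs.

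**Figure D5:**
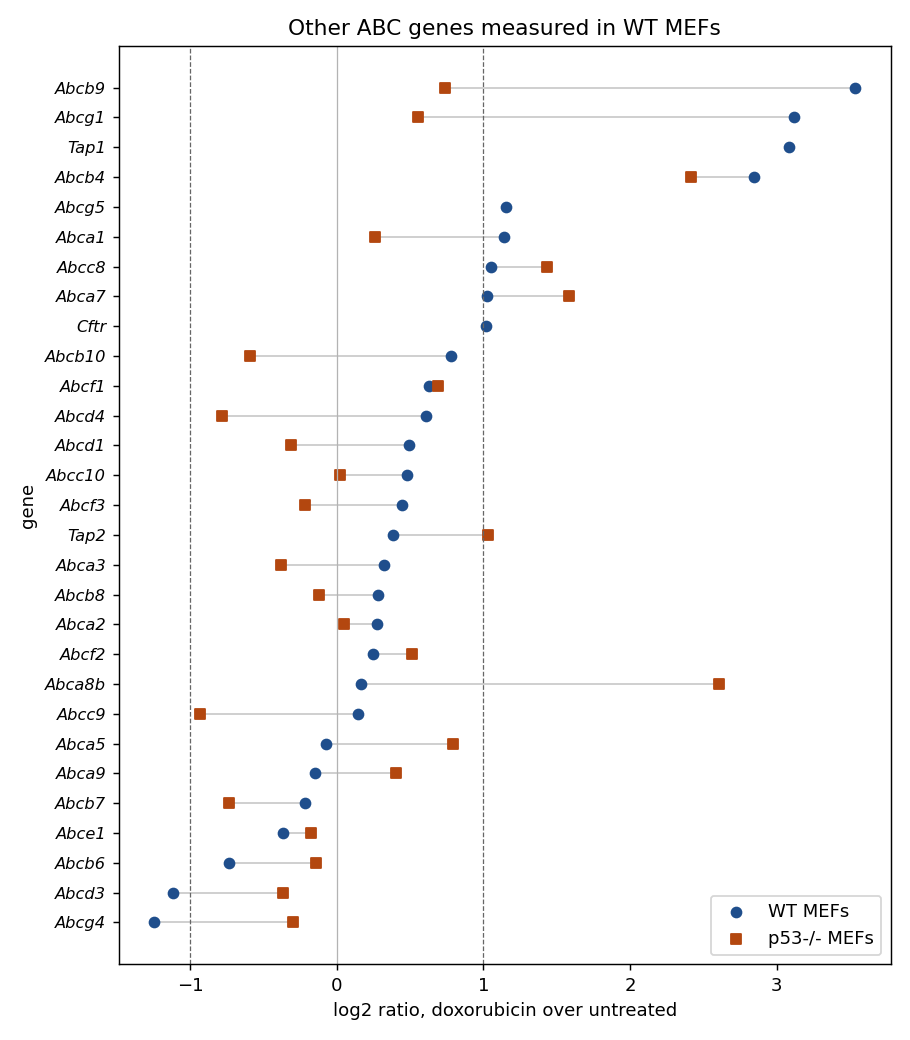
Log2 ratio of doxorubicin-treated over untreated cells (horizontal axis) for the 29 other ABC genes measured in WT MEFs (vertical axis, ordered by the WT ratio). Blue circles are WT and orange squares p53-/- MEFs, dashed lines mark 2-fold, and a missing square means that no ratio was measured in p53-/- MEFs. Abcb9 and Abcg1 lie far to the right in WT MEFs alone, whereas both points of Abcb4 lie beyond 2.

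Of 24 transcription factors and partners known to act on exporter genes, 2 of 22 measured were higher and 1 lower in WT MEFs with doxorubicin, and 1 of 21 was higher and 0 lower in p53-/- MEFs. The shares of all measured genes were 11.0% higher and 10.4% lower in WT MEFs, and 9.24% and 6.89% in p53-/- MEFs. This list did not exceed those shares. Nfyb, a subunit of the factor that binds CCAAT boxes, had a signal of 1222, 2859, 1299.6 and 2453 and log2 ratios of 1.42 (WT) and 0.55 (p53-/-). Its 3 probes were all past 2-fold in WT MEFs (1.33 to 1.42). The other higher gene was Trp53 itself (1.68). Cebpb, a leucine zipper factor, had log2 ratios of -1.31 and -0.16. Ahr, the aryl hydrocarbon receptor that responds to foreign chemicals, was higher in p53-/- MEFs (1.23) and had 0.39 in WT MEFs. The Ahr call was lost with median scaling (0.93) and with the mean of its probes (0.75).

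Enzymes that reduce doxorubicin, together with carriers that may take it up, made up a list of 18 genes, of which 12 were measured in each genotype. With doxorubicin 4 were higher and 0 lower in WT MEFs, and 3 were higher and 1 lower in p53-/- MEFs. Over all measured genes the shares were 11.0% and 10.4% in WT MEFs, and 9.24% and 6.89% in p53-/- MEFs. Nqo1, a quinone reductase, had log2 ratios of 1.62 and 1.53, Cbr3, a carbonyl reductase, 1.48 and 1.15, and Akr1b3, an aldose reductase, 1.36 and 1.27. With median scaling the p53-/- values of Cbr3 and Akr1b3 were 0.85 and 0.98, short of 2-fold, while Nqo1 kept its call in both genotypes. Akr7a5, an aldehyde reductase, had 1.05 in WT MEFs (0.77 with median scaling) against -0.35 in p53-/- MEFs, and Cbr2 was lower in p53-/- MEFs (-1.70, against 0.27 in WT MEFs).

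Genes of glutathione and conjugation, some of which make conjugates that Abcc proteins export, were listed as 21, of which 20 were on the array. They are called glutathione genes elsewhere in this text, although Ugt1a6a and Ugt1a7c are genes of glucuronic acid conjugation. In WT MEFs 5 of 17 measured were higher and 1 lower, and in p53-/- MEFs 2 of 18 were higher and 1 lower. Over all measured genes the shares higher and lower were 11.0% and 10.4% in WT MEFs, and 9.24% and 6.89% in p53-/- MEFs. Mgst2, a membrane glutathione transferase, had log2 ratios of 3.11 (WT) and 0.90 (p53-/-), Gstt1 2.64 and 0.14, and Gss, glutathione synthetase, 2.57 and 0.63. Gsta4, which conjugates lipid aldehydes, was higher in both genotypes (1.69 and 1.68). Gstm5 was lower in WT MEFs (-1.10), Gstm1 was higher in p53-/- MEFs (1.11, or 0.81 with median scaling), and Ggt1 was lower there (-1.29), though from a signal of 204, below the brightest negative control of that array, and its call was lost with normexp (-0.83).

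Of 10 membrane partners of exporters, 2 of 9 were higher and 0 lower in WT MEFs, and 4 of 10 were higher and 1 lower in p53-/- MEFs. The shares of all measured genes were 11.0% and 10.4% in WT MEFs, and 9.24% and 6.89% in p53-/- MEFs. Cav1 and Cav2, the caveolins of the caveolae in which P-glycoprotein is often found, were higher in both genotypes, by log2 ratios of 1.08 and 1.44 in WT cells and of 1.498 and 1.549 in p53-/- cells, though the WT value of Cav1 was 0.80 with median scaling. Pdzk1, a scaffold that anchors transporters, was higher in p53-/- MEFs (1.85, from a signal of 82.4 that is itself below the brightest negative control), as was the kinase gene Pim1 (1.15, or 0.85 with median scaling). Slc9a3r2, another scaffold, was lower there (-1.02), and its second probe fell short of 2-fold (-0.66). No list gives a test, since each group was 1 array.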

How the data were processed

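RNA of 4 samples was measured by the authors on Agilent whole mouse genome arrays (1 color, Cy3), 1 array per group on 1 slide. The deposited intensity of each spot is the processed signal of Agilent Feature Extraction 10.7.3.1, background-subtracted and detrended within the array, with no normalization between arrays. The deposited flags, other values coded 0 or 1, mark spots well above background, saturated or outlying. The deposited table for all arrays held the same intensities. The methods name a between-sample fold change in the Subio Platform, which was not used here.

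Outlier spots were left out, repeat spots were averaged on the log2 scale, and values were scaled to the 75th percentile signal of their array ( 2073.9, 1818.6, 1880.9 and 2421.3). The probe with the highest mean stood for a gene, and was measured where more than 0.5 of its kept spots were well above background. The lowest such signals were 56.7, 44.3, 57.9 and 87.1. Precision is limited by the number of arrays, and there is no p-value. Named genes were all members, Trp53, Cdkn1a, Mdm2, up to 4 highest and 4 lowest genes of each list past 2-fold with doxorubicin, and the 3 genes most like each of 2 members, of which 1 is not reported here. Members and lists were chosen with earlier results of these data known. Gene names came from RefSeq (GRCm38.p6) where a probe matched. The steps were tested on simulated arrays. Python 3.11.15, numpy 2.4.6, pandas 2.3.3, matplotlib 3.10.9, and R 4.3.3 with limma 3.58.1 (normexp alone) were used. Alternatives changed the scaling, background correction, filter, probe choice, source table and fold.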

Additional observations from a re-analysis of the deposited data

Results flagged for a closer look

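Of the genes named, 5 had doxorubicin ratios of opposite direction in WT and p53-/- MEFs, each past the repeat-spot SD. With 1 array per group these differences were not tested. The share of all measured genes that meet this rule was not counted, so 5 cannot be set against it. Genes of the lists were named because a doxorubicin ratio had passed 2-fold. The exporters among the 5 were Abcg2, with log2 ratios of -0.26 (WT) and 0.68 (p53-/-) (difference -0.94), and Abcc3, with -0.14 and 0.47 (difference -0.62). Abcc3 is the weaker case, because its WT ratio is close to the repeat-spot SD of 0.115. Beyond the exporters, Cbr2 had 0.27 and -1.70 (difference 1.97), Akr7a5 had 1.05 and -0.35 (difference 1.40), and Gstm1 had -0.24 and 1.11 (difference -1.35). With arrays scaled to their median the WT ratio of Cbr2 became -0.01, so its direction there is not settled, while the others kept opposite directions under median scaling, quantile normalization and normexp. The second Cbr2 probe had log2 ratios of 0.71 and -1.59, the same directions, whereas the second Gstm1 probe had 0.17 and 1.08, the same direction in both genotypes.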

How the results depend on the processing

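The ratios of Abcb1b stayed past 2-fold under every scaling, background correction, filter and probe choice run, from 2.22 to 2.50 in WT and from 2.05 to 2.35 in p53-/- MEFs. Scaling to the array median put the median over all genes at a log2 ratio of -0.27 (WT) and -0.30 (p53-/-), and the share of higher genes among those called fell from 51.4% to 32.1% and from 57.3% to 31.3%. The Abcc5 ratio in WT MEFs became 0.91, so 1 member was called with doxorubicin in WT MEFs, and Abcg2 between treated genotypes became 0.94. That scaling also gave 7 other ABC genes and 1 partner in WT MEFs and 2 uptake and reduction genes in p53-/- MEFs. Of the 31 member ratios, only Abcc1 between untreated genotypes changed sign (-0.03 to 0.08). Without a filter on dim probes Abcb1a was counted, which gave 2 members in p53-/- MEFs and 1 for the difference of ratios, 17 other ABC and 8 uptake and reduction genes in WT MEFs, and 11 other ABC, 2 transcription factor, 9 uptake and reduction and 5 glutathione genes in p53-/- MEFs. Of all 31704 genes, that setting called 4901 higher and 2868 lower (WT), 4718 and 2353 (p53-/-), and 3623 and 4054 for the difference. With the mean of a gene's probes, 0 transcription factors were called in p53-/- MEFs, where 1540 of 16980 genes were higher and 1163 lower. At 1.5-fold, 4 members were called in p53-/- MEFs, 1 between untreated genotypes and 3 for the difference, with 9 transcription factor, 11 glutathione and 5 partner genes in WT MEFs and 12 other ABC, 6 transcription factor and 7 glutathione genes in p53-/- MEFs. At 3-fold, 1 member was called in WT MEFs and 1 between treated genotypes, with 4 other ABC, 1 transcription factor, 1 uptake and reduction and 0 partner genes in WT MEFs and 2, 0, 1 and 1 of these with 1 glutathione gene in p53-/- MEFs. Over all measured genes, 1.5-fold called 3609 higher and 3511 lower of 17513 in WT MEFs, and 3284 and 2687 of 16950 in p53-/- MEFs. Between untreated genotypes it called 1510 and 1501 of 17286, and for the difference 3035 and 3280 of 16513. At 3-fold these were 888 and 734 (WT), 647 and 381 (p53-/-), and 947 and 862 of 17888 between treated genotypes. Quantile normalization, normexp (offset 50), the stricter filters and the deposited table left all 15 counts within 1.5 times. The list counts under these settings were added after the data were seen. No paired analysis was possible because each group was 1 array and the labels carry no replicate numbers. Leaving out an array was not possible for the same reason, and slide as a block was not run because there was 1 slide. Signal over background limits Abcb1a to bounds and leaves Abcc2 unmeasured.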

Other observations

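The lists were also compared between genotypes. Without doxorubicin no gene of the transcription factor, reduction, glutathione or partner lists had a measured ratio of at least 2-fold higher in p53-/- than in WT MEFs, and 1, 1, 2 and 0 were lower in that order, of 22, 12, 17 and 9 measured. Among other ABC genes 0 of 27 were higher and 4 lower. Of all measured genes, 2.15% were higher and 2.61% lower. Ggt1 was well above background in the p53-/- culture alone (signals of 13.6 in WT and 204 in p53-/- MEFs), so it was at least 3.96-fold higher there (2.08-fold against the brightest negative control of the WT array), although 204 is below the brightest negative control of its own array. Among treated cells the glutathione genes had 1 higher and 7 lower in p53-/- MEFs out of 20 measured, with a median log2 ratio of -0.53, and the other ABC genes had 3 higher and 8 lower of 28, with a median of -0.29, where 11.9% of all genes were higher and 10.3% lower. Over all genes measured on these arrays the median was 0.00. In the same comparison 1 of 14 reduction genes was higher and 3 lower. For transcription factors 1 of 21 was higher and 1 lower, and for partners 1 of 10 was higher and 0 lower. Abcg1 (-4.58), Abcb9 (-3.84), Gss (-2.66), Gstt1 (-2.39), Mgst2 (-2.27) and Tap1 (-2.25) were among the lower genes, and Gstm5 (1.13) was the higher glutathione gene. Cbr3 was lower in p53-/- MEFs without (-1.46) and with (-1.79) doxorubicin.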
